A study of Rattus norvegicus with 24 samples.

Results

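The genes described here are 10 immediate early genes of neuronal activity: the zinc finger transcription factors Egr1, Egr2, Egr3 and Egr4, the AP-1 subunits Fos and Fosb, the orphan nuclear receptors Nr4a1 and Nr4a3, and Arc and Npas4. They were chosen by symbol. All 10 are in the count table of 29539 genes, and all 10 are among the 14421 genes that passed a filter on low counts. RNA was measured by sequencing in 24 samples of rat (Rattus norvegicus) brain, 8 in each of 3 groups. The normal control group is named as such, with no statement of a sham operation. The series concerns stab wounds of the forebrain, and the vehicle group, labelled by that word alone, is read here as wounded brain given carrier. The SKF group received SKF-81297, an agonist of D1-like dopamine receptors, by a daily intraperitoneal injection for 3 days, the first of them 1 h after injury. Strain, age, sex, brain region and time of collection are not given in the labels. The labels do not say that 8 samples are 8 animals, so each p-value measures the spread between samples, which may be technical.

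Immediate early genes are transcribed within minutes of a stimulus, without new protein synthesis. In neurons, calcium entry through NMDA receptors and voltage-gated channels and cyclic AMP act through kinases on CREB, SRF with its ELK partners, and MEF2 proteins, which already sit on the promoters of these genes. The EGR, FOS, NR4A and NPAS4 proteins then act as transcription factors on later genes, among them Bdnf, and ARC protein acts at synapses, where it promotes the removal of AMPA receptors. Npas4 is switched on mainly by calcium in neurons, whereas Egr1, Fos and Nr4a1 also respond to growth factors and stress in many cell types.

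The promoter sequences show how far these genes share response elements. RefSeq windows from build GRCr8, each with 250 bases before an annotated start and 50 after it, matched 6 of the 10 genes (Egr1, Egr2, Egr4, Fosb, Nr4a1 and Npas4). In the sequences below, written 5′ to 3′ on the gene's strand and ending at the base before the start, capitals mark CGTCA (the reverse complement of TGACG, the core of a cyclic AMP response element, to which CREB binds) and the CArG box, to which SRF binds. Egr1 (chr18:26736828-26737077, plus strand), Egr4 (chr4:119607818-119608067, minus strand) and Nr4a1 (chr7:134259888-134260137, plus strand) are shown because they hold 2, 2 and 4 copies of the core. The Egr1 and Egr4 windows belong to the outermost annotated start of the gene. The others belong to inner starts, which lie 12985 bases from the outermost one in Nr4a1, 11936 in Npas4, 760 in Egr2 and 322 in Fosb.
Egr1: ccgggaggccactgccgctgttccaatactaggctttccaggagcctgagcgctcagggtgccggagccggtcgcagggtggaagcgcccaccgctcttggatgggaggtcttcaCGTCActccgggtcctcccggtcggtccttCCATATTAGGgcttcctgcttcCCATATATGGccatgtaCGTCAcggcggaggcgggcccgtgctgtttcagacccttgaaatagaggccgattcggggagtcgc
Egr4: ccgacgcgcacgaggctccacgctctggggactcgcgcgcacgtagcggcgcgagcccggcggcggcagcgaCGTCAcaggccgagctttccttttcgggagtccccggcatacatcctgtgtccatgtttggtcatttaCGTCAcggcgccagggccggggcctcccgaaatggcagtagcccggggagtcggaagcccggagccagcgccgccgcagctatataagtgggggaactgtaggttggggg
Nr4a1: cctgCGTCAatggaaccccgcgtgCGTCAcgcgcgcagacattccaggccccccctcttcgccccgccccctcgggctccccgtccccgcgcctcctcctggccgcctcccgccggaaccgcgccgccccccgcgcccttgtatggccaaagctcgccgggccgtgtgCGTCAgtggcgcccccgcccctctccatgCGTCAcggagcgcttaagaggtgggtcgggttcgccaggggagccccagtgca

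Egr2 has the same pair of elements as Egr1 at the same distance from the start of its window's transcript. The next lines show bases -86 to -57 of Egr1 (chr18:26736992-26737021, plus strand) and of Egr2 (chr20:21054498-21054527, minus strand), with the CArG box at -83 to -74 and the core at -66 to -62 in both.
Egr1 stretch: ttcCCATATATGGccatgtaCGTCAcggcg
Egr2 stretch: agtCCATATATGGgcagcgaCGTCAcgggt

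Searched on both strands, the TGACG core was present in 4 of the 6 windows (Egr1, Egr2, Egr4 and Nr4a1) and in 21.2% of all 33469 RefSeq promoter windows. At least 2 copies, as in Egr1, Egr4 and Nr4a1, were present in 4.96% of all windows. A CArG box was found in Egr1 and Egr2, against 1.64% of all windows, and Egr1 holds 2 of them (0.0209% of all windows). The longer string CGTCACGG, which overlaps the core and was picked after these windows were read, occurs in Egr1, Egr2, Egr4 and Nr4a1 and in 0.684% of all windows. The full element TGACGTCA was in none of the 6 windows and in 1.83% of all. The EGR motif GCGNGGGCG was in the Nr4a1 window and in 4.98% of all. The exact string TATAAA was in the Fosb window, on the opposite strand at -180 to -175, and in 14.2% of all. These are matches of letters in a window, not measured binding.

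Total counts ran from 8911339 to 12383368 per library. Levels are given as normalised CPM (counts scaled to a common library size), with sizes set by edgeR's TMM method, and differences as log2 fold changes ± SE from one edgeR quasi-likelihood fit to all 24 libraries, with p-values adjusted by the Benjamini-Hochberg method over the 14421 genes and a threshold of 0.05. The general neuronal markers were present in every library, at a summed 2899 CPM or more. Normal control 6 stood apart from its group: its 7 striatal neuron markers summed to 4500 CPM, against 202 to 982 in the other normal controls, and its 7 thalamus markers to 42.5 CPM, against 194 to 504. Normal control 4 held 2097 CPM of 5 skeletal muscle markers, against 8.42 to 17.1 in the others. Values are from all libraries unless stated, and several of those that normal controls 4 and 6 moved are also given without them.

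In vehicle against normal control, 9 of the 10 genes fell and Fos rose. The falls were largest in Egr4, Arc, Nr4a3, Nr4a1, Npas4, Egr2 and Egr1, with log2 differences from -2.55 to -1.61, and smallest in Fosb and Egr3. Across all genes tested, 27.1% were called lower and 26.9% higher in this comparison, so a call alone says little. The size of the falls is a separate measure: the median log2 difference of the 10 genes was -1.89, against -0.01 over all genes tested, and 27 of the 14421 genes had a lower value than Egr4. In Egr1, Egr2, Egr4, Nr4a1, Nr4a3 and Arc, each of the 8 vehicle libraries lay below each of the 8 normal controls, as did 7.5% of all genes tested. In bulk tissue, fewer cells of a type and less RNA per cell cannot be told apart. The median of the 10 genes and the place of Egr4 were taken with normal controls 4 and 6 in. Left out together, those libraries changed none of these 10 calls.

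**Figure D1:**
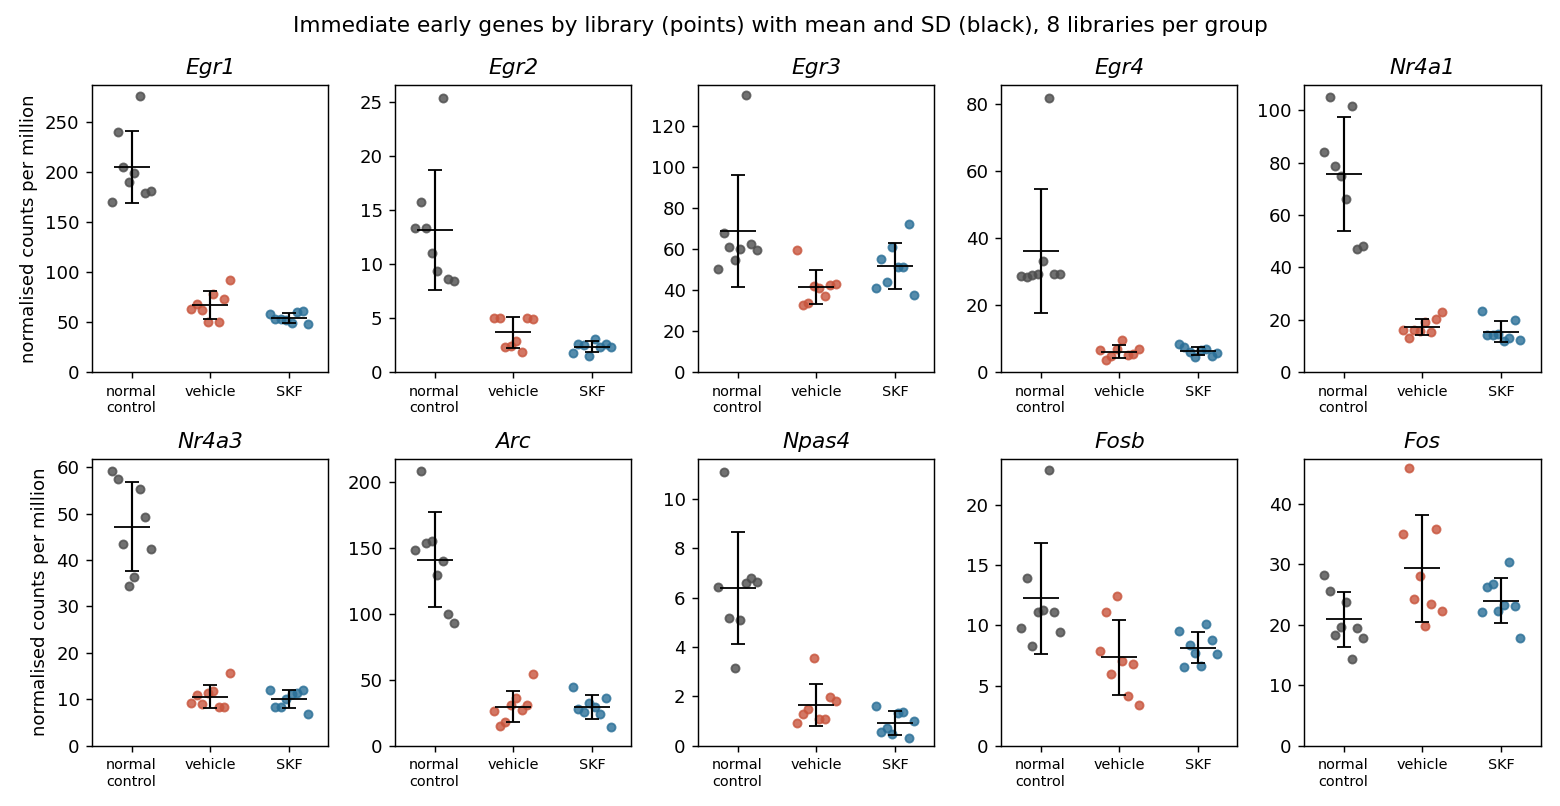
Level of each of the 10 genes in every library (normalised CPM, linear axis) for the normal control, vehicle and SKF groups, 8 libraries each. Points are libraries, and the black marks show the group mean and SD. In 6 genes normal control and vehicle do not overlap. Fos is the gene whose vehicle median (26.2 CPM) lies above that of normal controls (19.6 CPM).

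Egr1, an activity-regulated zinc finger factor with high basal expression in cortex, had the highest mean level of the 10 genes per length (TPM) in every group. It ran from 171 to 276 CPM in normal controls (median 195) and from 49.6 to 92.3 CPM in vehicle (median 65.7). The log2 difference was -1.61 ± 0.11, a 3.06-fold lower level (adjusted p = 5.46e-12). No vehicle library reached the lowest normal control.

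Egr2, also known as Krox20 and needed for myelination by Schwann cells, was far lower in counts. Its range was 8.40 to 25.4 CPM in normal controls (median 12.1) and 1.84 to 5.01 CPM in vehicle (median 3.88), from 17 to 62 counts per vehicle library. The difference was -1.83 ± 0.23 (adjusted p = 1.92e-07), with no overlap. Within vehicle, 4 libraries (replicates 3, 4, 5 and 6) held at most 2.87 CPM and the other 4 at least 4.89 CPM.

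Egr4, a factor of the same family found mainly in the nervous system, fell the most of the 10 genes, by 2.55 ± 0.23 on the log2 scale (5.85-fold, adjusted p = 8.13e-10). Outside normal control 6, normal controls lay within 28.5 to 33.2 CPM, while normal control 6 held 81.9 CPM. Vehicle ran from 3.49 to 9.70 CPM (median 6.03). Without normal controls 4 and 6 the difference was -2.27, still with no overlap.

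Egr3, a factor also known for muscle spindle development, fell less than the other EGR genes. It ran from 50.1 to 135 CPM in normal controls (median 60.3) and from 32.8 to 59.6 CPM in vehicle (median 41.5). The difference was -0.73 ± 0.18 (adjusted p = 0.00121), and 7 of 8 vehicle libraries lay under the lowest normal control. Vehicle 1, at 59.6 CPM, was inside the normal range. Without normal controls 4 and 6, of which the latter held 135 CPM, the difference was -0.54 (adjusted p = 0.00114).

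The nuclear receptors moved by nearly the same amount. Nr4a1, also called Nur77, ran from 46.9 to 105 CPM in normal controls (median 76.8) and from 13.2 to 22.9 CPM in vehicle (median 16.2), a difference of -2.12 ± 0.17 (adjusted p = 1.37e-10). Nr4a3, or NOR1, ran from 34.4 to 59.2 CPM (median 46.3) and from 8.32 to 15.8 CPM (median 10.1), a difference of -2.15 ± 0.14 (adjusted p = 1.29e-12). Neither overlapped between the groups. Their family member Nr4a2, which marks midbrain dopamine neurons and was outside the 10 genes, had a difference of -0.36 ± 0.30 (adjusted p = 0.330).

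Arc and Npas4 are the members most restricted to neurons. Arc ran from 92.7 to 208 CPM in normal controls (median 144) and from 15.0 to 54.0 CPM in vehicle (median 28.7), a difference of -2.24 ± 0.23 (adjusted p = 3.45e-08). Vehicle 2 was lowest and vehicle 8 highest, and no vehicle library reached a normal control. Npas4, whose protein drives Bdnf and inhibitory synapse genes, ran from 3.15 to 11.1 CPM in normal controls (median 6.52) and from 0.919 to 3.56 CPM in vehicle (median 1.39). The difference was -1.94 ± 0.29 (adjusted p = 2.01e-06). Vehicle 4 (3.56 CPM) was the one vehicle library above the lowest normal control, which was normal control 4 (3.15 CPM).

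The 2 FOS genes moved in opposite directions. Fosb, whose truncated product accumulates with repeated stimulation, ran from 8.32 to 22.9 CPM in normal controls (median 11.1) and from 3.39 to 12.4 CPM in vehicle (median 6.91). The difference was -0.74 ± 0.22 (adjusted p = 0.00584), with overlapping groups, and it was -0.55 (adjusted p = 0.0282) without normal controls 4 and 6. Fos, the AP-1 subunit most used as a marker of recent activity, ran from 14.4 to 28.3 CPM in normal controls (median 19.6), from 19.8 to 45.9 CPM in vehicle (median 26.2) and from 17.8 to 30.4 CPM in SKF (median 23.2). Its difference was 0.49 ± 0.16 (adjusted p = 0.0101), with 3 vehicle libraries above the highest normal control. Without normal controls 4 and 6 it was 0.40 (adjusted p = 0.0435), and without vehicle 2, the highest library, 0.36 (adjusted p = 0.0321).

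**Figure D2:**
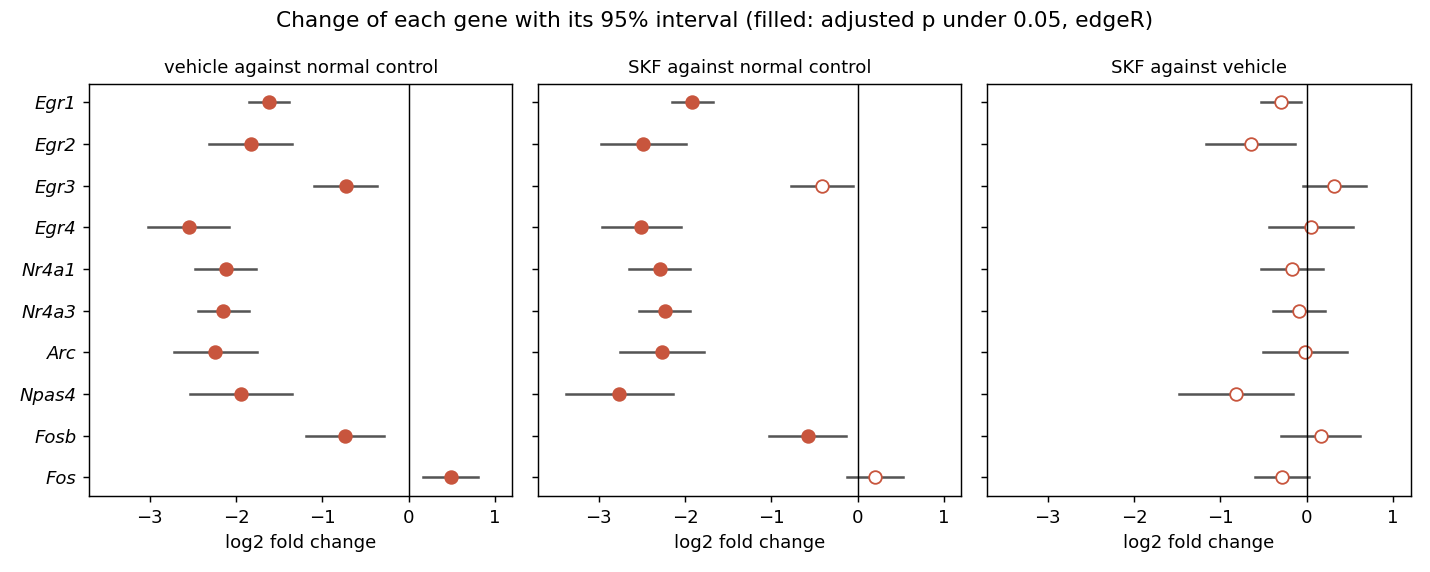
Log2 fold change of each of the 10 genes in the 3 comparisons, with 95% confidence intervals from the edgeR fit. Differences against normal control run down to -2.55 (vehicle) and -2.76 (SKF), while SKF against vehicle stays within -0.82 and 0.32.

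Cell type markers moved in the same comparison, in which 27.1% of all genes tested were called lower and 26.9% higher. The part of the markers in the result was not tested. Of 8 general neuronal markers, 6 fell and none rose, with a median log2 difference of -0.36 (Nefl, a neurofilament, -0.60; Rbfox3, the NeuN antigen, 0.06, not called). Their summed level was 4652 to 5773 CPM in normal controls and 2899 to 4887 CPM in vehicle, ranges that overlap. Of 6 excitatory markers, 2 fell (Slc17a6, -2.64, and Neurod6, -1.99) and 1 rose (Tbr1, 0.40), and of 5 inhibitory markers tested 4 fell. Among 7 thalamus markers 6 fell, and among 7 striatal markers 1 fell. The median log2 differences of these lists were 0.04 (excitatory), -0.43 (inhibitory), -1.65 (thalamus) and -0.99 (striatal). The summed thalamus markers were 42.5 to 504 CPM in normal controls and 55.5 to 109 CPM in vehicle. Normal control 6 alone makes these overlap: the other normal controls, at 194 to 504 CPM, all lay above vehicle. Normal control 6, low in thalamus markers but highest in striatal markers at 4500 CPM, held 140 CPM of Arc. Vehicle held at most 54.0 CPM of it. A library of another tissue mix cannot tell what part thalamus tissue has in the level of Arc, which was not tested. The striatal sums were 202 to 4500 and 294 to 1032 CPM.

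Markers of monocytes or macrophages and of neutrophils went the other way. All 6 monocyte or macrophage markers and all 5 neutrophil markers tested rose, the first with summed levels of 22.2 to 35.1 CPM in normal controls and 193 to 301 CPM in vehicle. Microglia markers were mixed: of 6, 2 rose (Aif1, 0.57, and Csf1r, 0.39), 2 fell (Tmem119, -1.51, and P2ry12, -1.49) and 2 were not called. All 6 oligodendrocyte markers fell. Among the astrocyte markers 5 of 6 fell and Gfap, the filament protein of reactive astrocytes, rose by 2.46. No marker was at 0 in a whole group.

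In SKF against normal control, which shares the normal control libraries with the comparison above, 8 of the 10 genes were lower and none was higher. Of all genes tested, 24.7% were called lower and 25.5% higher. The differences were -1.91 ± 0.11 for Egr1, -2.48 ± 0.24 for Egr2, -2.51 ± 0.22 for Egr4, -2.29 ± 0.17 for Nr4a1, -2.24 ± 0.14 for Nr4a3 and -2.26 ± 0.23 for Arc, with adjusted p of 3.50e-08 or less. For Npas4 it was -2.76 ± 0.30 (6.78-fold, adjusted p = 1.82e-08), the largest of the 10 here. In these 7 genes no SKF library overlapped a normal control, as in 7.11% of all genes tested. The median difference of the 10 genes was -2.25, against -0.01 over all genes. Without normal controls 4 and 6 these 7 differences ran from -2.87 (Npas4) to -1.85 (Egr1), with Egr4 at -2.22, and all 7 still passed.

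Fosb, Egr3 and Fos stood near the threshold or short of it in SKF against normal control. Fosb was lower by the test at -0.58 ± 0.22 (adjusted p = 0.0277), but not without normal control 6 (-0.40, adjusted p = 0.0904), SKF 2 (adjusted p = 0.0525) or SKF 5 (adjusted p = 0.0516). Egr3 had a difference of -0.41 ± 0.17 (adjusted p = 0.0524). It passed without any one of normal controls 1, 4 and 8 and SKF 4 and 7, with adjusted p from 0.0205 to 0.0494, and was -0.20 (adjusted p = 0.174) without normal control 6. Fos, at 0.20 ± 0.16, did not pass (adjusted p = 0.301).

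SKF against vehicle asks what the agonist changed after the wound. None of the 10 genes passed, nor did any of the 14421 genes (0% called) in edgeR, with 0 also called by limma on TPM and 6 genes, none of them among these 10, by DESeq2. At an unadjusted p under 0.05 there were 3 of the 10 genes (Egr1, Egr2 and Npas4), against 4.96% of all genes (715). All 3 were lower in SKF, and 7 of the 10 differences were negative. The median difference was -0.13, against 0.00 over all genes tested. None of the cell type markers passed either. The summed neuronal markers were 3665 to 4961 CPM in SKF and 2899 to 4887 CPM in vehicle, and the summed neutrophil markers 25.3 to 46.5 CPM and 47.6 to 104 CPM.

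The SKF libraries of Egr1 ran from 48.4 to 61.4 CPM (median 53.3), inside the vehicle range but for 2 libraries. All 8 lay under the vehicle median of 65.7 CPM. The difference was -0.30 ± 0.11 (95% interval -0.53 to -0.07, unadjusted edgeR p of 0.0126, adjusted p = 0.889). Egr1 varied less between libraries in SKF (SD 4.96 CPM) than in vehicle (SD 14.3 CPM), a difference that was not tested.

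Egr2 had a median of 2.41 CPM in SKF and reached at most 3.09 CPM, with 16 to 35 counts per library. Its difference was -0.65 ± 0.25 (95% interval -1.16 to -0.14, unadjusted edgeR p of 0.0151, adjusted p = 0.889). Each SKF library was under 3.88 CPM, the median of vehicle.

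Npas4 ran from 0.307 to 1.59 CPM in SKF (median 0.864), which is 3 to 18 counts per library. The difference was -0.82 ± 0.32 (95% interval -1.48 to -0.16, unadjusted edgeR p of 0.0170, adjusted p = 0.895), and 4 SKF libraries lay below the lowest vehicle library.

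For the other genes the interval of the difference included 0. Egr3, at 37.4 to 72.2 CPM in SKF (median 51.2), had 0.32 ± 0.18 (95% interval -0.05 to 0.68), and Fos had -0.29 ± 0.15 (-0.60 to 0.03). Arc, at 14.4 to 44.6 CPM in SKF (median 28.6), had -0.03 ± 0.23 (-0.51 to 0.46). Egr4, at 4.49 to 8.41 CPM (median 6.42), had 0.04 ± 0.24 (-0.44 to 0.53). A p that misses the threshold does not show that these levels were equal. Nr4a1 ran from 12.0 to 23.4 CPM in SKF (median 14.2) and differed by -0.17 ± 0.17 (-0.53 to 0.18). Nr4a3 ran from 6.89 to 12.0 CPM (median 10.5) and differed by -0.09 ± 0.15 (-0.39 to 0.21). Fosb ran from 6.51 to 10.1 CPM (median 8.03) and differed by 0.16 ± 0.22 (-0.30 to 0.61).

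**Figure D3:**
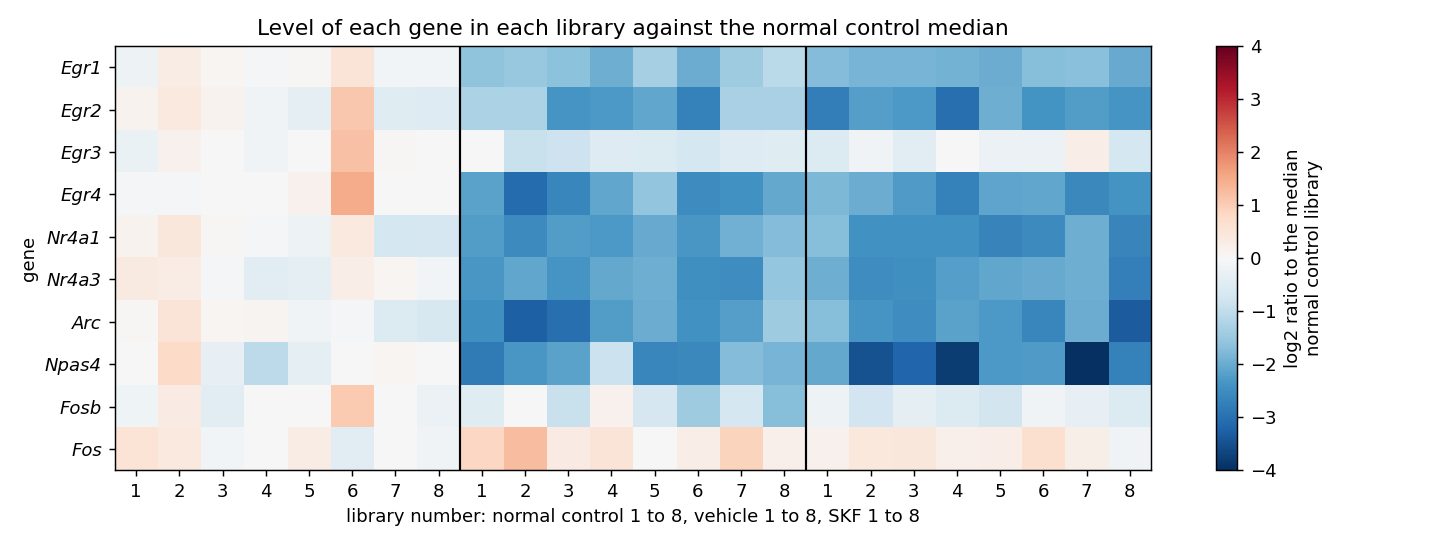
Level of each gene in each library, as the log2 difference from the gene's median over the 8 normal controls, in columns ordered by group and replicate number. All 16 vehicle and SKF columns are below that median in every row but Fos, Fosb and Egr3. For Egr3, 8 vehicle and 6 SKF columns are below it, and for Fosb 7 and 8. The normal control 6 column is high for Egr2, Egr3, Egr4 and Fosb.

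No library was the highest or the lowest of its group for all 10 genes. Among normal controls, replicate 6 was highest for Egr1, Egr2, Egr3, Egr4 and Fosb and lowest for Fos, and replicate 2 was highest for Nr4a1, Arc and Npas4. In vehicle, replicate 8 was highest for Egr1, Nr4a1, Nr4a3 and Arc and lowest for Fosb, while replicate 2 was highest for Fos and lowest for 4 genes. In SKF, replicate 1 was highest for 5 genes and replicate 8 lowest for 5.

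Levels of different genes were compared per transcript length, as TPM. Normal controls had the order Egr1 (162 TPM ± 24.8 SD), Arc (109 ± 29.1), Nr4a1 (69.9 ± 19.4), Egr3 (55.6 ± 19.4), Egr4 (41.0 ± 18.9), Fos (32.6 ± 7.75), Nr4a3 (21.2 ± 4.05), Egr2 (10.9 ± 4.17), Fosb (8.01 ± 2.71) and Npas4 (6.37 ± 2.29), n = 8. Each neighbouring pair in that order overlapped in range. With replicates 4 and 6 left out, the order was the same except that Fos (34.7 TPM ± 7.10 SD) and Egr4 (34.3 ± 2.85) changed places. In vehicle the order was Egr1 (57.9 TPM ± 12.5 SD), Fos (49.6 ± 14.4), Egr3 (37.0 ± 7.94), Arc (25.2 ± 10.3), Nr4a1 (17.5 ± 3.26), Egr4 (7.72 ± 2.48), Fosb (5.27 ± 2.20), Nr4a3 (5.22 ± 1.22), Egr2 (3.34 ± 1.28) and Npas4 (1.80 ± 0.929). Nr4a1 and Egr4 were the one neighbouring pair there without overlap. SKF kept the order of vehicle from Arc down, with Egr3 (45.2 TPM ± 9.57 SD) above Fos (40.1 ± 7.40), and Nr4a1 with Egr4 and Nr4a3 with Egr2 did not overlap.

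The summed level of the 10 genes was 516.8 TPM ± 94.4 (SD, n = 8) in normal controls, 210.6 ± 28.6 in vehicle and 192.9 ± 25.8 in SKF, and 494.9 ± 86.5 in normal controls without replicates 4 and 6. The composition of that sum differed. Fos made up 6.47% ± 1.68 (SD) of it in normal controls, 23.7% ± 6.60 in vehicle and 20.8% ± 2.82 in SKF, with no overlap between the 3.13% to 8.84% of normal controls and the 15.1% to 36.1% of vehicle. A share also rises when the other genes of the sum fall. The level of Fos itself overlapped, at 20.8 to 43.7 TPM in normal controls and 34.3 to 75.2 TPM in vehicle. Arc made up 21.1% ± 3.71, 11.8% ± 3.82 and 12.5% ± 2.91. Egr3 made up 10.7% ± 2.34, 17.6% ± 2.88 and 23.4% ± 3.60, while its own mean level was 55.6, 37.0 and 45.2 TPM. The normal shares without replicates 4 and 6 were 7.06% for Fos, 21.5% for Arc and 10.1% for Egr3. These shares were not tested.

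**Figure D4:**
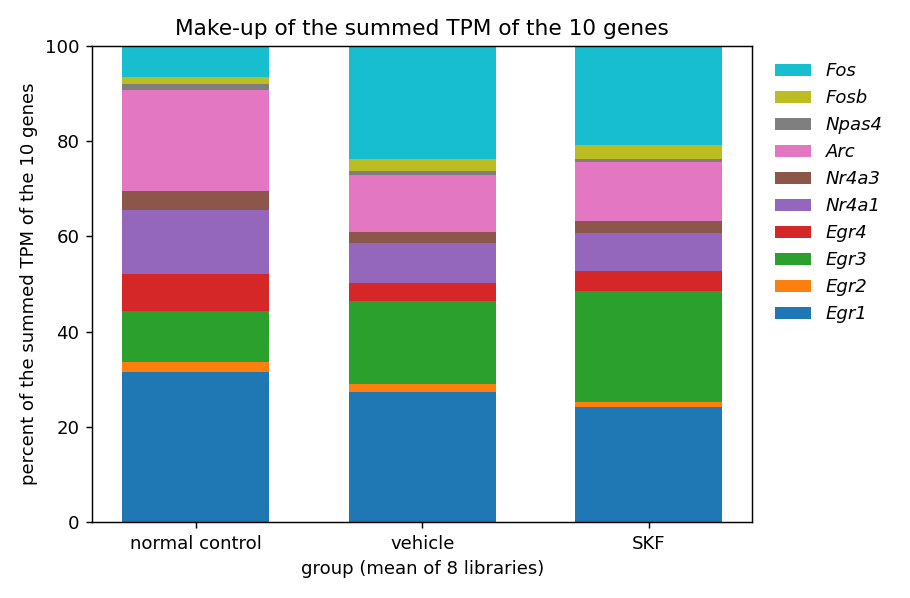
Share (%) of each gene in the summed TPM of the 10 genes, as the mean of 8 libraries per group in stacked bars. Fos takes 6.47% of the sum in normal controls and 23.7% in vehicle, and Arc 21.1% and 11.8%.

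Other early response genes went opposite to most of the 10. Of 18 listed, 16 were tested, and in vehicle against normal control 12 rose, none fell and the median difference was 0.73. Among all genes tested, 26.9% were called higher and 27.1% lower. Atf3, a stress-induced ATF family factor, rose by 4.43 ± 0.21, from 0.947 CPM ± 0.416 (SD) to 20.9 ± 5.48. Maff, a small MAF factor, rose by 4.27 ± 0.24, and Ccn1, a secreted matricellular protein, by 3.84 ± 0.23. Jun, the AP-1 partner of FOS proteins, rose by 1.19 ± 0.11 (adjusted p = 1.57e-09), from 73.9 CPM ± 14.3 to 169 ± 31.1, and stood at 160 ± 12.4 in SKF.

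Genes upstream of the 10 were mostly lower or not called. The counts stand beside 27.1% called lower and 26.9% called higher among all genes tested. Of 7 calcium entry genes 5 fell and none rose: Gria1, an AMPA receptor subunit (-0.73), Grin2a, an NMDA receptor subunit (-0.65), and Cacna1c, the L-type channel pore (-0.58), fell most. Of 12 kinase and phosphatase genes 6 fell, led by the calmodulin-dependent kinase genes Camk4 (-1.08), Camkk2 (-0.73) and Camk2b (-0.67), and 2 rose (Rps6ka2, 0.20, and the ERK gene Mapk3, 0.17). Of 9 transcription factors and coactivators 2 rose (Elk1, 0.60, and Crtc2, 0.43) and 2 fell (Mef2a, -0.31, and Mef2d, -0.25). Srf (0.17, adjusted p = 0.0730) and Creb1 (0.12, adjusted p = 0.113) did not pass.

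Downstream, 8 of 17 late activity-regulated effectors fell and 1 rose, where 27.1% of all genes tested were called lower and 26.9% higher. Bdnf, the neurotrophin, fell by 1.81 ± 0.20 (adjusted p = 2.31e-08), from 17.7 CPM ± 4.05 (SD) to 5.03 ± 1.74. Scg2, a granin of secretory vesicles, fell by 1.29 and Pcsk1, a prohormone convertase, by 1.25, while Gadd45b, a stress and demethylation factor, rose by 1.38. Of 6 feedback and partner genes, Rxra, a partner of NR4A receptors, rose (0.52), and Arnt2, the partner of NPAS4, fell (-0.22). Nab1 and Nab2, corepressors of EGR proteins, did not pass (-0.04 and -0.10).

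In SKF against vehicle no gene of these 6 lists passed. The smallest unadjusted edgeR p in each list was 0.037 for Btg2 (-0.31), 0.27 for Grin2a (0.19), 0.060 for Camk2b (0.19), 0.037 for Mef2a (0.18), 0.17 for Rxra (-0.16) and 0.016 for Pcsk1 (-0.39). In SKF against normal control 10 of the 16 other early response genes were higher and 1 lower, and of the 17 late effectors 3 were higher and 8 lower. Among all genes tested, 25.5% were called higher and 24.7% lower in that comparison.

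**Figure D5:**
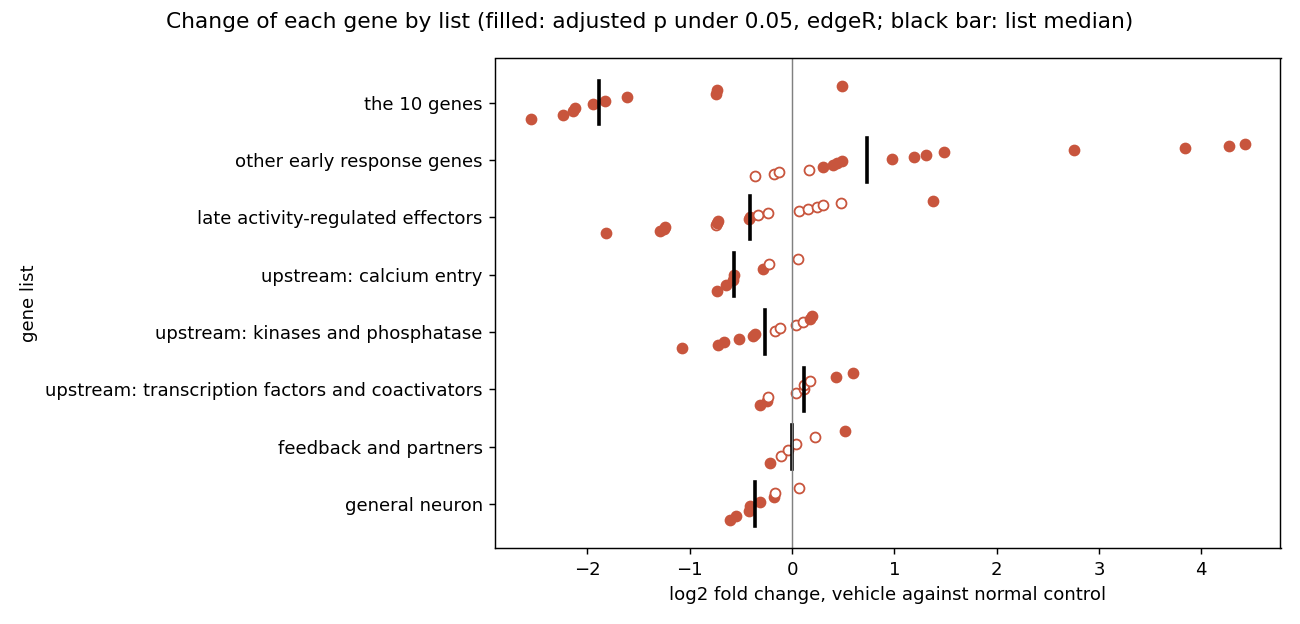
Log2 fold change of each gene in vehicle against normal control, by list, with filled points for adjusted p under 0.05 in edgeR and a black bar at each list's median. The median is -1.89 for the 10 genes and 0.73 for the other early response genes.

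Within a group, the 10 genes were compared pair by pair over the 8 libraries, as log2 CPM. Of the 135 pairs (45 in each of 3 groups), none passed by Pearson's r or Spearman's rho in exact permutation tests adjusted over all pairs. The coefficient was positive in 40 of 45 pairs in normal controls (median r 0.38), 31 in vehicle (0.16) and 33 in SKF (0.20). The median r of Fos to the others in normal controls was -0.26, but 0.52 without normal controls 4 and 6, so its sign rests on them. That of Egr4 went from 0.41 to -0.24, and the median over all 45 pairs from 0.38 to 0.45. The smallest p belonged to Egr2 with Nr4a1 in normal controls: r = 0.87 (exact permutation p = 0.00236, adjusted p = 0.162), rho = 0.95 (exact permutation p = 0.00114, adjusted p = 0.154), r = 0.94 without the 2 libraries farthest from the median of Egr2, and r = 0.96 without normal controls 4 and 6. Nr4a1 with Arc had r = 0.89 in normal controls, 0.86 in vehicle and 0.76 in SKF (exact permutation p = 0.00429, 0.00826 and 0.0290, adjusted p = 0.193, 0.252 and 0.356). Without the 2 libraries farthest from the median of Nr4a1 these were 0.62, 0.76 and 0.47, and rho was 0.74, 0.79 and 0.76 (exact permutation p = 0.0458, 0.0279 and 0.0368, adjusted p = 0.618 in each). In normal controls r was 0.98 without replicates 4 and 6.

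Across the 24 libraries, with each group's mean taken out, 12458 other genes were ranked by their r with the 10 genes. With the mean profile of the 10, the highest were Pou3f1 (0.76), Ctdnep1 (0.75), Pcnx1 (0.75), Krba1 (0.74) and Cbfa2t3 (0.74). Their order changed without normal controls 4 and 6, when r was 0.81 for Pcnx1, 0.67 for Krba1, 0.66 for Cbfa2t3, 0.64 for Pou3f1 and 0.62 for Ctdnep1. For single genes the highest was Jun for Fos (r = 0.87, rho = 0.88, and r = 0.85 without normal controls 4 and 6), Tamalin for Egr3 (0.87), Mark1 for Egr4 (0.83), Srf for Egr2 (0.78), Fam53a for Fosb (0.76) and Arid3b for Nr4a1 (0.76). Gli3 for Egr1 and Ttyh3 for Arc both reached 0.75, Dyrk1a for Npas4 0.73 and Tenm2 for Nr4a3 0.67. Without normal controls 4 and 6, r fell to 0.69 for Mark1 with Egr4, 0.76 for Tamalin with Egr3, 0.72 for Srf with Egr2, 0.72 for Gli3 with Egr1, 0.71 for Dyrk1a with Npas4 and 0.62 for Tenm2 with Nr4a3. It was 0.75 for Fam53a with Fosb, 0.78 for Arid3b with Nr4a1 and 0.78 for Ttyh3 with Arc. They are descriptions of the best of 12458 values over libraries that also differ in depth and tissue content, with no test.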

How the data were processed

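Poly(A)-selected RNA from 24 rat brain samples was sequenced with a directional kit, per the labels' protocols. The authors deposited read counts per gene, whole numbers not normalised, and TPM values for the same genes, both on build mRatBN7.2 per the submitters' processing notes. No source used here names the aligner, the counter or the use of strand. Groups come from sample titles. The 10 genes, the lists of related and marker genes and the tests were chosen with earlier results of these data known.

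The count test was that of edgeR 4.0.16 (R 4.3.3, TMM, filterByExpr by group, robust quasi-likelihood F test, 21 residual degrees of freedom) on all 24 libraries. Benjamini-Hochberg adjustment covered the 14421 genes tested. At 8911339 to 12383368 counts per library the biological coefficient of variation was 16.2%. CPM shown are TMM-scaled. SE is the absolute log2 fold change over the root of F, and 95% intervals use edgeR's moderated degrees of freedom. The gene test was tried on simulated counts, and the permutation test on fixed artificial orders. As alternatives, RLE replaced TMM, DESeq2 1.42.0 replaced edgeR, and limma 3.58.1 was run on log2(TPM + 1) or log2(TPM + 0.1) for the 15280 genes with 0.5 TPM or more in 8 libraries. Others used no filter, 1 CPM or more in 8 libraries, the 2 groups alone, a replicate block, or left out each library or normal controls 4 and 6. Named from each related list, in vehicle against normal control, were the 3 called genes with the largest difference per direction, and in SKF against vehicle the smallest p. Nr4a2, Jun, Srf, Creb1, Nab1 and Nab2 were added for their role. Genes ranked for likeness had a symbol and averaged 1 or more in log2 CPM. Promoter windows are from RefSeq build GRCr8 and no coordinate was moved between builds. Correlations and figures used SciPy 1.17.1 and Matplotlib 3.10.9 in Python 3.11.15.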

Additional observations from a re-analysis of the deposited data

Results flagged for a closer look

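Of 30 sets of 8 libraries (10 genes in 3 groups), 7 held a library that stood apart. In each, the gap to the nearest neighbour was a larger part of the whole range than Dixon's critical value for 8 samples allows. For normally distributed values in independent sets, chance passes that value in about 1 set in 20. CPM on a linear scale need not be normal, and the 10 genes share libraries, so 7 of 30 cannot be read against that rate. Normal control 6 was the highest for Egr2 (25.4 CPM, gap 0.565), Egr3 (135 CPM, gap 0.791), Egr4 (81.9 CPM, gap 0.912) and Fosb (22.9 CPM, gap 0.613). The next highest normal controls held 15.8, 67.8, 33.2 and 14.0 CPM. This is the library with 4500 CPM of striatal neuron markers, and the part of its tissue composition in these values was not tested. Npas4 was highest in normal control 2 (11.1 CPM, gap 0.539) and, within vehicle, in replicate 4 (3.56 CPM, gap 0.604), and Egr3 in vehicle 1 (59.6 CPM, gap 0.624).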

How the results depend on the processing

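In vehicle against normal control all 10 genes passed, 9 lower and 1 higher, under each alternative run. In SKF against normal control 8 passed, and 7 to 9 over the alternatives. In SKF against vehicle none of the 10 passed under any alternative, while DESeq2 called 6 of all genes tested against 0 in edgeR. With the replicate block, 7434, 0 and 6830 genes and 10, 0 and 8 of the 10 genes were called in vehicle against normal control, SKF against vehicle and SKF against normal control. Samples of the same number did not deviate together (correlations of -0.24 to 0.01, -0.12 to 0.08 and -0.19 to 0.04), so the block has no support as a pairing. In SKF against vehicle, leaving out 1 library gave ranges across 0 for Egr4 (-0.040 to 0.17), Arc (-0.14 to 0.16) and Nr4a3 (-0.14 to 0.018). On log2(TPM + 1), where the median of all genes shifted by 0.11 and 0.09, genes called lower were 2408 in vehicle and 2296 in SKF against normal control (3904 and 3557 in edgeR), and genes called higher 5476 and 4996 (3879 and 3682); with a pseudocount of 0.1, 2358 and 2252 were lower. Fosb in SKF against normal control was lost there (adjusted p = 0.0938 and 0.106), and Egr3 passed with RLE (0.0484) and DESeq2 (0.0246). Npas4, with 3 to 35 counts per wounded library, is the gene whose precision depth limits most.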
